A study of Mus musculus with 16 samples.

Results

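Loss of Fmr1 on top of loss of Cpeb1 was examined in RNA of mouse cerebral cortex, by setting double knockout cortex (Fmr1/Cpeb1 double KO) against Cpeb1 knockout cortex (Cpeb1 KO). The comparison uses 4 RNA-seq libraries, 2 of each genotype, chosen by their titles from the 16 libraries of the series, of which 8 are RNA-seq and 8 are ribosome footprints. Cpeb1 is knocked out in both groups, so the groups differ by labelled genotype only at Fmr1. The other 4 RNA libraries, 2 of wild type (WT) and 2 of the Fmr1 knockout, entered the same fit and were used to ask whether Fmr1 loss had another effect where Cpeb1 was present. All animals were labelled as 28 to 35 days old and of an FVB.129P2 strain (-/Pde6b+ Tyr c-ch //AntJ). Cortex was homogenised, a cytoplasmic lysate was split between the assays, and the RNA-seq libraries were made from fragments of 50 to 60 nt after rRNA depletion. The part of each gene that the knockout alleles remove, the sex of the animals and the number of animals behind a library are not stated in the labels. The p-values below therefore measure the spread between these libraries, which may be technical.

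FMRP, the product of Fmr1, is an RNA-binding protein of neurons that associates with many long mRNAs encoding synaptic proteins and is best known as a repressor of their translation. Its absence underlies fragile X syndrome, in which protein synthesis and synaptic signalling are altered. CPEB1 binds a uridine-rich element in the 3′ untranslated region of target mRNAs and controls the length of their poly(A) tail, and with it their translation and stability.

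Fmr1 was the only gene that passed the test in RNA, and it fell. Its RNA level, in CPM (counts scaled to the size of the library), was 116 and 87.05 CPM in libraries 1 and 2 of the Cpeb1 knockout and 25.2 and 21.5 CPM in those of the double knockout. The groups lay far apart, and RNA assigned to Fmr1 was still found in both double knockout libraries. The log2 difference was -2.11 with a standard error (SE) of 0.13, a ratio of 0.231, with an adjusted p of 7.86e-05 in edgeR's quasi-likelihood test. WT had 109 and 91.3 CPM and the Fmr1 knockout 25.9 and 18.4 CPM, so the level in either genotype lacking Fmr1 was similar with and without Cpeb1. In footprints Fmr1 fell further, from 108 and 94.8 CPM in the Cpeb1 knockout to 5.33 and 5.52 CPM in the double knockout, a log2 difference of -4.23 with an adjusted p of 4.82e-09 in edgeR.

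Cpeb1 RNA was at 16.0 and 19.7 CPM in the Cpeb1 knockout and at 18.5 and 16.1 CPM in the double knockout. These overlapped, and the log2 difference was -0.04 with an SE of 0.19. WT libraries had 43.9 and 33.6 CPM and Fmr1 knockout libraries 36.5 and 27.6 CPM, all above the libraries labelled as lacking Cpeb1. The targeted genes thus followed the labels in all 8 RNA libraries.

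**Figure D1:**
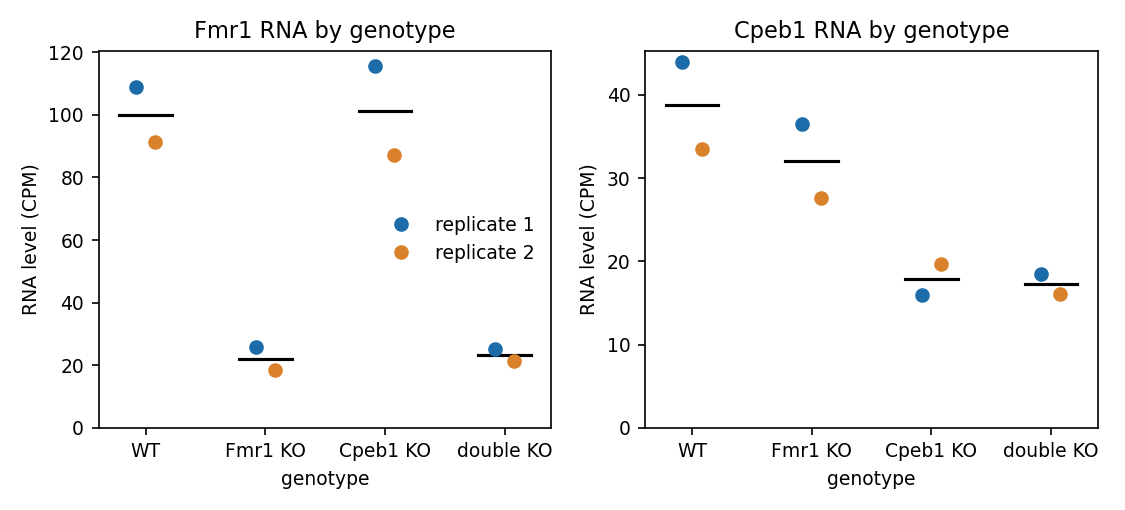
RNA level in CPM (vertical axes, from 0) of Fmr1 (left) and Cpeb1 (right) in the 4 genotypes. Points are libraries, coloured by replicate number, and lines are means of 2 libraries. Fmr1 lay between 18.4 and 25.9 CPM in the 4 libraries labelled as Fmr1-deficient and at 87.05 CPM or more in the others, while Cpeb1 lay between 16.0 and 19.7 CPM in the 4 libraries labelled as Cpeb1-deficient.

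Across the transcriptome, 13287 of the 20436 listed genes had enough counts to be tested, and 1 of them (0.00753%) had an adjusted p under 0.05. At an unadjusted p under 0.05 there were 2550 genes (19.2%), of which 1300 were higher in the double knockout (9.78%) and 1250 lower (9.41%). The smallest adjusted p after that of Fmr1 was 0.0928, and 167 genes had an adjusted p under 0.1, of which 139 were higher and 28 lower. DESeq2 called 212 genes on the same design (178 higher and 34 lower). Removing the trend with gene length gave 489 calls (3.68%), and leaving out library 2 of the double knockout or of the Cpeb1 knockout gave 463 and 371, against 2 and 9 without library 1 of these groups. The authors' deposited table of this comparison listed 459 genes with an adjusted p under 0.05 (341 higher and 118 lower) among 7774 with an adjusted p (5.9%), and all 459 had the same sign in the present fit of the same libraries.

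The differences seen in the 2 replicate numbers resembled each other only weakly. For each gene the double knockout library was set against the Cpeb1 knockout library of the same number. The sign was the same in both numbers for 7639 genes (57.5%). Across 13285 genes, leaving out both targeted genes, Pearson's r between the 2 differences was 0.168, a description of genes that share 4 libraries and no test. The SD across genes was 0.473 in number 1 and 0.404 in number 2. The plots of the named genes and of the list medians therefore show both replicate numbers.

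The genes with the smallest p above and below 0 are given as a description, since they were picked from this contrast: 10 higher and 10 lower genes with at least 50 counts on average and the same sign in both replicate numbers. The groups did not overlap for any of the 20, which the way they were picked favours but does not require. Across all tested genes the groups did not overlap for 2718 genes that were higher (20.5%) and 3060 that were lower (23%). None of the 20 passed at an adjusted p of 0.05, with adjusted p between 0.0928 and 0.0955. DESeq2 called 19 of them and the fit with the length trend removed 19. The authors' deposited table called 9 of the higher and all 10 lower genes, and lists Nbl1 with no adjusted p. Their promoter windows, from 250 bases before to 50 after the annotated start, are shown for the genes with the smallest p on each side, Nbl1 and Shisa7 (higher) and Pls3 and Tmem184c (lower), as examples. The 4 do not stand for their sides. They come from RefSeq's annotation of GRCm38.p6 and read 5′ to 3′ on the gene's strand. Capitals mark CG dinucleotides, of which the windows hold 43, 23, 6 and 13.

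Nbl1, chr4:139092921-139093220, minus strand: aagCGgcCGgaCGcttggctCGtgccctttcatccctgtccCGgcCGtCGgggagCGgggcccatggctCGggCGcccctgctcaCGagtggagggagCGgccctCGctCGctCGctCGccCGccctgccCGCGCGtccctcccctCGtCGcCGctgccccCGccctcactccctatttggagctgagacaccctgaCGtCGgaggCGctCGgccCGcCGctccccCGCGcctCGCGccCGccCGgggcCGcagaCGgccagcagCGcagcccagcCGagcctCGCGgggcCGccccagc
Shisa7, chr7:4844647-4844946, minus strand: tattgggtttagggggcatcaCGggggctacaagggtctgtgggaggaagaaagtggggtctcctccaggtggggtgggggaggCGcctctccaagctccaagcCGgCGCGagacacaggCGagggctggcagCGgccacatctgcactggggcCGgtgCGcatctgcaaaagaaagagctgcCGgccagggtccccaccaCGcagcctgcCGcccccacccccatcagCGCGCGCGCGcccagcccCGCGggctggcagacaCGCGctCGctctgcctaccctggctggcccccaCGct
Pls3, chrX:75875133-75875432, minus strand: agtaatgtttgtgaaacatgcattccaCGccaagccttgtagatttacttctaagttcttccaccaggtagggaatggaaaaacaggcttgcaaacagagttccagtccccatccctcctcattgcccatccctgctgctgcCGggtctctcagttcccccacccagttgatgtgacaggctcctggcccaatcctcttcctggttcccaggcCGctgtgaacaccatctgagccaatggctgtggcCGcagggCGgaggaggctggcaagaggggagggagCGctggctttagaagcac
Tmem184c, chr8:77610665-77610964, minus strand: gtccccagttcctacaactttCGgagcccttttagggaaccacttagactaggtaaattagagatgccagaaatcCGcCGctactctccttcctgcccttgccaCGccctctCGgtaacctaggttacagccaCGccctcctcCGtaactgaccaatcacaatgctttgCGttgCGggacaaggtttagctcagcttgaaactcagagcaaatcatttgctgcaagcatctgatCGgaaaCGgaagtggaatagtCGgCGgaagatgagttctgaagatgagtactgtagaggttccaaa

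Windows were found for 9 of the 10 higher and 8 of the 10 lower genes. The higher genes' windows had a median GC content of 70.3% (from 43% to 79%) and 23 CG dinucleotides (from 5 to 44), and the lower genes' windows 54.9% (from 43% to 73.7%) and 14 (from 2 to 46). Over 10054 tested genes with a window the medians were 61.3% and 21, and the ranges of the higher and lower genes overlapped. The E-box CACGTG, which reads the same on both strands and is the site of the clock regulators of genes such as Dbp, was in none of these 17 windows and in 10.1% of the 10054. RNA-seq counts do not measure these windows.

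Nbl1 and Shisa7 headed the higher genes. Nbl1, which encodes a secreted antagonist of bone morphogenetic proteins, was at 8.45 and 8.69 CPM in the Cpeb1 knockout and at 22.3 and 21.2 CPM in the double knockout, a log2 difference of 1.34 (SE 0.18). The libraries within each genotype were close and the genotypes apart by a ratio of 2.54. Both double knockout levels were also above those of WT, 14.3 and 11.0 CPM. Shisa7, which encodes a transmembrane protein associated with synaptic receptors, was at 24.2 and 32.6 CPM in the Cpeb1 knockout and at 61.0 and 57.0 CPM in the double knockout, a log2 difference of 1.08 (SE 0.16).

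Dbp, a clock-controlled transcription factor, was at 42.6 and 49.96 CPM in the Cpeb1 knockout and at 84.1 and 85.7 CPM in the double knockout, with WT at 76.4 and 70.9 CPM. Arhgap33, a GTPase-activating protein that also sorts membrane cargo at synapses, was at 103.5 and 143 CPM against 228 and 220 CPM. Cdk5r2, the p39 activator of the neuronal kinase Cdk5, was at 103 and 165 CPM against 262 and 244.5 CPM. In these 3 genes the Cpeb1 knockout libraries were below both WT libraries and the double knockout libraries were above them or near the upper one. Adcy5, the adenylyl cyclase most abundant in striatum, was at 235 and 242 CPM against 472 and 437 CPM, and WT had 396 and 501 CPM. Bcl11b, a transcription factor of deep-layer cortical and striatal projection neurons, was at 103.5 and 107 CPM against 161 and 167 CPM, with WT at 152 and 160.0 CPM. For Adcy5 and Bcl11b the double knockout was at or near the WT level and the Cpeb1 knockout below it. Srrm3, a neuronal splicing regulator, Ltbp4, a matrix protein that binds latent TGF-beta, and Rnf44, a RING finger protein, had log2 differences of 0.79, 1.01 and 1.04.

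The lower genes were led by Pls3, an X-linked gene encoding the actin-bundling protein plastin 3. It was at 243 and 191 CPM in the Cpeb1 knockout and at 145.5 and 113 CPM in the double knockout, a log2 difference of -0.75 (SE 0.11). The difference was nearly the same in both replicate numbers, -0.74 and -0.75. Tmem184c, a multipass membrane protein, was at 100.1 and 85.0 CPM against 56.0 and 54.6 CPM, a log2 difference of -0.74 (SE 0.13). Gpr22, an orphan G protein-coupled receptor, was at 95.2 and 82.9 CPM against 52.0 and 53.0 CPM. WT libraries lay between the genotypes for Tmem184c (79.4 and 88.0 CPM, overlapping the Cpeb1 knockout) and for Gpr22 (73.6 and 70.2 CPM).

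Serpini1, which encodes the serine protease inhibitor neuroserpin, was at 342 and 278 CPM against 217.5 and 207 CPM. Chl1, a neural adhesion molecule of the L1 family, was at 303 and 317 CPM against 223 and 217 CPM. Zdbf2, an imprinted gene, was at 139 and 207 CPM against 107 and 93.2 CPM, and its log2 difference was -0.38 in number 1 and -1.15 in number 2. Ptges3, the Hsp90 co-chaperone p23, was at 99.3 and 73.9 CPM against 69.1 and 48.7 CPM, so the genotypes were close to touching. Tmem56, Pdp1, a phosphatase that activates pyruvate dehydrogenase, and Nkrf, an X-linked repressor of NF-kappa-B, had log2 differences of -0.74, -0.57 and -0.58.

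Footprints of the same genotypes are a second readout from the other part of the lysates, in libraries that did not pick these genes. Across 13774 genes 772 were called in footprints (5.6%), of which 413 were higher (3%) and 359 lower (2.61%). This count was 207 without the replicate number as a term, and without library 1 or 2 of the Cpeb1 knockout or library 1 or 2 of the double knockout it was 5, 18, 81 and 10. Of the 20 genes 19 had the same sign in footprints as in RNA. Among the higher genes, 4 rose in footprints: Dbp by 0.58, Ltbp4 by 0.56, Cdk5r2 by 0.49 and Srrm3 by 0.48 on the log2 scale, with adjusted p from 0.0157 to 0.0341. Among the lower genes 6 fell in footprints, led by Tmem184c (-0.68), Pls3 (-0.66), Tmem56 (-0.57) and Gpr22 (-0.51), with Serpini1 at -0.35 and Ptges3 at -0.33. Their adjusted p ran from 0.0024 to 0.0454.

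For other higher genes the footprint difference was small. Adcy5 had a log2 footprint difference of 0.01 beside 0.94 in RNA, and Nbl1 had -0.10 beside 1.34. The authors' deposited Xtail table, which sets the footprint change against the RNA change, gave an adjusted p under 0.05 to 97 of 14516 genes (0.668%). In the authors' deposited table these included 5 of the 10 higher genes, Adcy5 (log2 efficiency change -0.84), Nbl1 (-1.28), Shisa7 (-0.67), Rnf44 (-0.65) and Arhgap33 (-0.60), and none of the 10 lower genes. That measure uses the RNA libraries that picked the genes, so it is given with no test here. Across 13025 genes, r between the RNA difference in number 2 and the footprint difference in number 1 was 0.238, and 0.125 for the reverse pairing, and each pair shares no library.

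**Figure D2:**
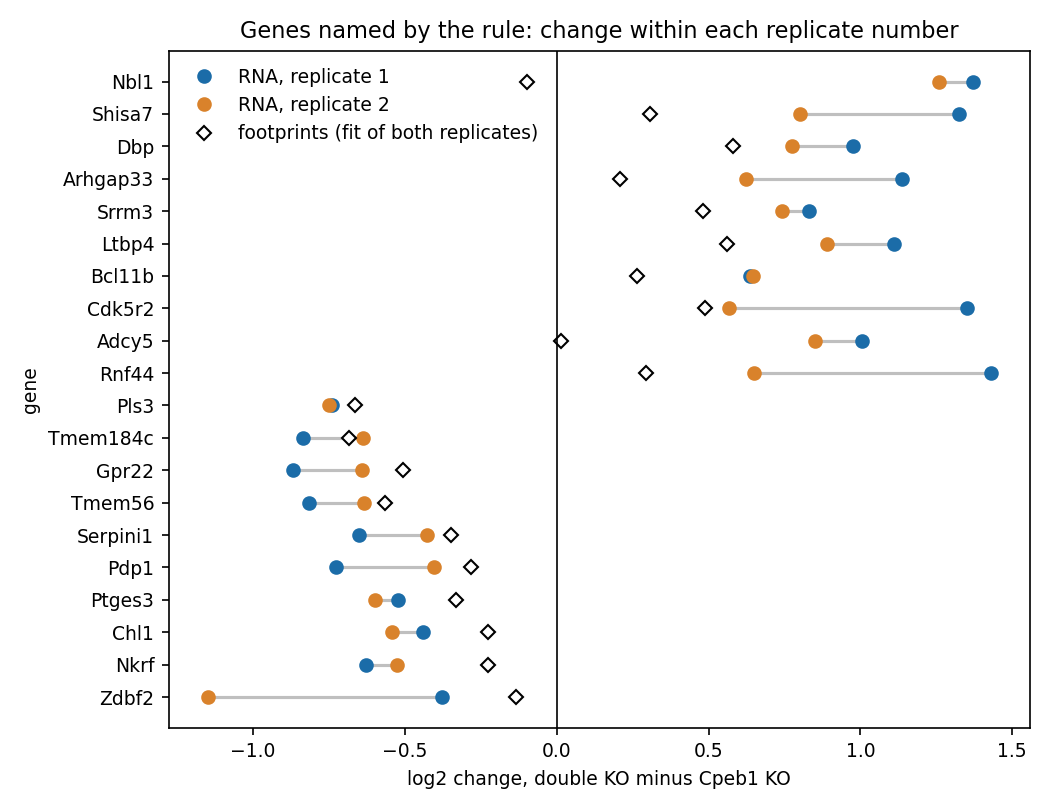
Log2 difference between double and Cpeb1 knockout (horizontal axis) for the 10 higher and 10 lower genes (vertical axis). Blue and orange points are RNA within replicate numbers 1 and 2, and open diamonds are footprints from the fit of all 8 footprint libraries. RNA points lie on one side of 0 by the way the genes were picked, and the diamonds lie nearer to 0 than both RNA points for every higher gene.

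The authors' deposited table ranks first, by its adjusted p, Arhgap33, Cdk5r2 and Speg among higher genes and Fmr1, Pls3 and Gpr22 among lower genes. Speg, a kinase of striated muscle also expressed in brain, is the only one of these not described above. Its RNA level was 124 and 160 CPM in the Cpeb1 knockout and 278 and 233 CPM in the double knockout. The log2 difference was 0.86 here (adjusted p 0.0955 in edgeR) and 0.62 in the authors' deposited table. For Fmr1 the deposited RNA value was also nearer to 0, -1.38 beside -2.11 here, and the reason was not tested. Speg footprints rose by 0.39 on the log2 scale (adjusted p 0.033 in edgeR).

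Postsynaptic scaffold genes stood at the higher end, mainly in replicate number 1. Of 25 postsynaptic scaffold genes, 12 were higher and 2 lower at an unadjusted p under 0.05, against 9.78% and 9.41% of all tested genes, and none had an adjusted p under 0.05. Their median log2 difference was 0.38, against -0.02 over all tested genes, but it was 0.59 in replicate number 1 and 0.04 in number 2. Dlg4, which encodes the scaffold PSD-95, was at 415 and 648 CPM in the Cpeb1 knockout and at 691 and 745 CPM in the double knockout, a log2 difference of 0.46 (SE 0.13). Homer1 went the other way, with 321 and 288 CPM against 205 and 226 CPM and a log2 difference of -0.50 (SE 0.13). Baiap2, an actin regulator of spines, had a log2 difference of 0.12. Shank3 and Shank1, scaffolds that were singled out after their values were seen, were at 75.2 and 114 CPM against 285 and 167 CPM and at 196 and 383 CPM against 858 and 505 CPM. Their differences were 1.92 and 2.13 in number 1 and 0.55 and 0.40 in number 2, and in footprints 0.22 and 0.20. The footprint median of the scaffolds was 0.16, with 2 of 25 called, both as higher, beside 3% of all genes.

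Of 103 mRNAs reported in the literature as bound by FMRP, 32 were higher and 1 lower at an unadjusted p under 0.05. Over all tested genes these shares were 9.78% and 9.41%, and none of the 103 passed the adjusted threshold. The median was 0.19, made up of 0.38 in number 1 and -0.02 in number 2. It was 0.02 in footprints, where 2 rose and 5 fell, beside 3% and 2.61% of all genes. Camk2a, the synaptic kinase subunit, was at 768 and 614 CPM in the Cpeb1 knockout and at 1333 and 721 CPM in the double knockout, a log2 difference of 0.51 (SE 0.13) whose size was 0.79 in number 1 and 0.23 in number 2. Sptan1, a spectrin chain of the membrane skeleton, had -0.05. Chromatin regulators, many of them long genes too, showed 16 higher and 2 lower of 57, beside 9.78% and 9.41% of all tested genes. Their medians were 0.35 in number 1 and -0.02 in number 2. Presynaptic release genes had a median of 0.10, with 0.15 and 0.01 in the 2 numbers, and 4 higher and 1 lower of 34, a share of higher genes near that of all tested genes.

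Ribosomal protein and respiratory chain genes stood at the lower end, again in replicate number 1. Of 80 cytosolic ribosomal protein genes 24 were lower and none higher at an unadjusted p under 0.05, beside 9.41% and 9.78% of all tested genes. Their median was -0.23, which was -0.51 in number 1 and -0.02 in number 2. Rpl13a was at 438.5 and 398.5 CPM in the Cpeb1 knockout and at 292 and 432 CPM in the double knockout, so the groups overlapped. Rplp1, at 333.5 and 301 CPM against 227 and 342 CPM, and Rpl38, at 143 and 139 CPM against 92.3 and 149 CPM, showed the same single low library. These mRNAs have many processed pseudogene copies, and whether reads were assigned to those was not tested. Of 74 subunits of oxidative phosphorylation 19 were lower and none higher, with medians of -0.46 and -0.003 in the 2 numbers. Atp5b and Atp5a1, subunits of the ATP synthase, had log2 differences of -0.05 and -0.12, and Cox4i1 of cytochrome oxidase had -0.19, with 639 and 529 CPM against 428 and 606.5 CPM. Mitochondrial ribosomal proteins gave 6 lower of 77, no more than the 9.41% of all tested genes, and none higher, with medians of -0.32 and 0.04 in the 2 numbers. Footprint medians of these 3 lists were between 0.002 and 0.07.

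Chaperone genes were lower in the double than in the Cpeb1 knockout in both replicate numbers. Of 27 genes for protein folding and heat shock 13 were lower and none higher at an unadjusted p under 0.05, against 9.41% lower in all tested genes. The median was -0.24, with -0.24 in number 1 and -0.27 in number 2. Their summed RNA was 16910 and 14650 CPM in the Cpeb1 knockout and 13680 and 12010 CPM in the double knockout. WT had 13620 and 11920 CPM and the Fmr1 knockout 16800 and 15090 CPM, so the double knockout was near WT. Hspa8, the constitutive cytosolic Hsp70, was at 5584 and 5140 CPM in the Cpeb1 knockout and at 4292 and 4103 CPM in the double knockout, a log2 difference of -0.35 (SE 0.10). Hsp90aa1 was at 2651 and 2124 CPM against 2102 and 1590 CPM, a log2 difference of -0.38 (SE 0.10), with groups nearly touching. Hsp90ab1, which is less inducible by stress, had -0.07. Hsp90b1, an endoplasmic reticulum chaperone singled out after its values were seen, was at 575 and 368.5 CPM against 350 and 299 CPM and fell in footprints by 0.43 on the log2 scale (adjusted p 0.024 in edgeR). The footprint median of the list was -0.12, and 2 of its 27 members fell there, beside 2.61% of all genes. Hspa8 RNA was lower in the double knockout while its footprints differed by 0.05.

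GABA receptor genes were also lower in both numbers, with 5 lower and none higher of 14 at an unadjusted p under 0.05, beside 9.41% lower of all tested genes, and none past the adjusted threshold. Their median was -0.21, with -0.14 and -0.24 in the 2 numbers. Gabrb2, a beta subunit of the ionotropic receptor, was at 246 and 256 CPM in the Cpeb1 knockout and at 225 and 206.5 CPM in the double knockout, a log2 difference of -0.22 (SE 0.11). In footprints Gabrb2 fell by 0.32 on the log2 scale (adjusted p 0.024 in edgeR), and 5 of the 14 genes fell and none rose, beside 2.61% of all genes that fell. Gabbr1, a subunit of the metabotropic receptor, had a log2 RNA difference of 0.05. Glutamate receptor genes were mixed in RNA, with 4 higher and 2 lower of 24 and a median of 0.06, with 0.19 and -0.05 in the 2 numbers. In footprints their median was -0.19, and 3 of the 24 fell and none rose, beside 2.61% of all genes that fell. A fall in footprints was thus not particular to the GABA receptors.

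Translation factors had 10 lower and 1 higher of 48 at an unadjusted p under 0.05, beside 9.41% and 9.78% of all tested genes. Their median was -0.12, with -0.19 and -0.09 in the 2 numbers. Eif4a2, a form of the eIF4A helicase, was at 1482 and 1240 CPM in the Cpeb1 knockout and at 1077 and 870 CPM in the double knockout. Its log2 difference was -0.49 (SE 0.10), of like size in both numbers. Eef1a1 had -0.22 and Eef1a2, the elongation factor form of mature neurons, 0.02. The mTOR pathway couples receptor signals to translation and is often studied in fragile X models. It had 9 lower and 1 higher of 37, beside 9.41% and 9.78% of all tested genes. Its median was -0.05, with -0.01 and -0.10 in the 2 numbers, near the -0.02 of all tested genes. Rheb, the GTPase that activates mTOR, was at 153 and 104 CPM against 97.5 and 85.9 CPM, a log2 difference of -0.48 (SE 0.13). Rheb also fell in footprints, by 0.37 on the log2 scale (adjusted p 0.0496 in edgeR).

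Relatives and partners of FMRP gave 2 higher and 3 lower of 13 at an unadjusted p under 0.05, beside 9.78% and 9.41% of all tested genes. Fxr1, an autosomal paralog of Fmr1, was at 165 and 124 CPM in the Cpeb1 knockout and at 118 and 98.8 CPM in the double knockout, a log2 difference of -0.41 (SE 0.11, adjusted p 0.116 in edgeR), and its footprints differed by 0.01. Fxr2, the other paralog, had an RNA difference of 0.05, with levels of 151 and 135 CPM against 153 and 142.5 CPM, and its footprints rose by 0.36 on the log2 scale (adjusted p 0.0242 in edgeR). Fxr1 and Fxr2 lie outside the rule and were named for their relation to Fmr1. The CPEB family and the cytoplasmic polyadenylation factors had 1 higher and none lower of 17, the deadenylation and decay factors 3 higher and 7 lower of 54, proteasome subunits 1 higher and 7 lower of 32, and tubulins 1 higher and none lower of 14.

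Immediate-early genes, which neurons transcribe within minutes of activity, showed opposite differences in the 2 replicate numbers. Their median was 0.37 in number 1 and -0.35 in number 2, and only 6 of 29 had the same sign in both. Arc, a synaptic effector of this class, was at 114 CPM in library 1 and 157 CPM in library 2 of the Cpeb1 knockout and at 227 and 67.4 CPM in the double knockout. The double knockout thus held both the highest and the lowest Arc level of the 4 libraries, and the fitted difference of -0.02 had an SE of 0.52. Jund, of the AP-1 family, had 0.19. Together 3 of the 29 were lower and none higher at an unadjusted p under 0.05, beside 9.41% and 9.78% of all tested genes. In footprints the list had a median of 0.30 and 5 of 29 rose, beside 3% of all genes. Arc was among them, with a rise of 0.41 on the log2 scale (adjusted p 0.0382 in edgeR).

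**Figure D3:**
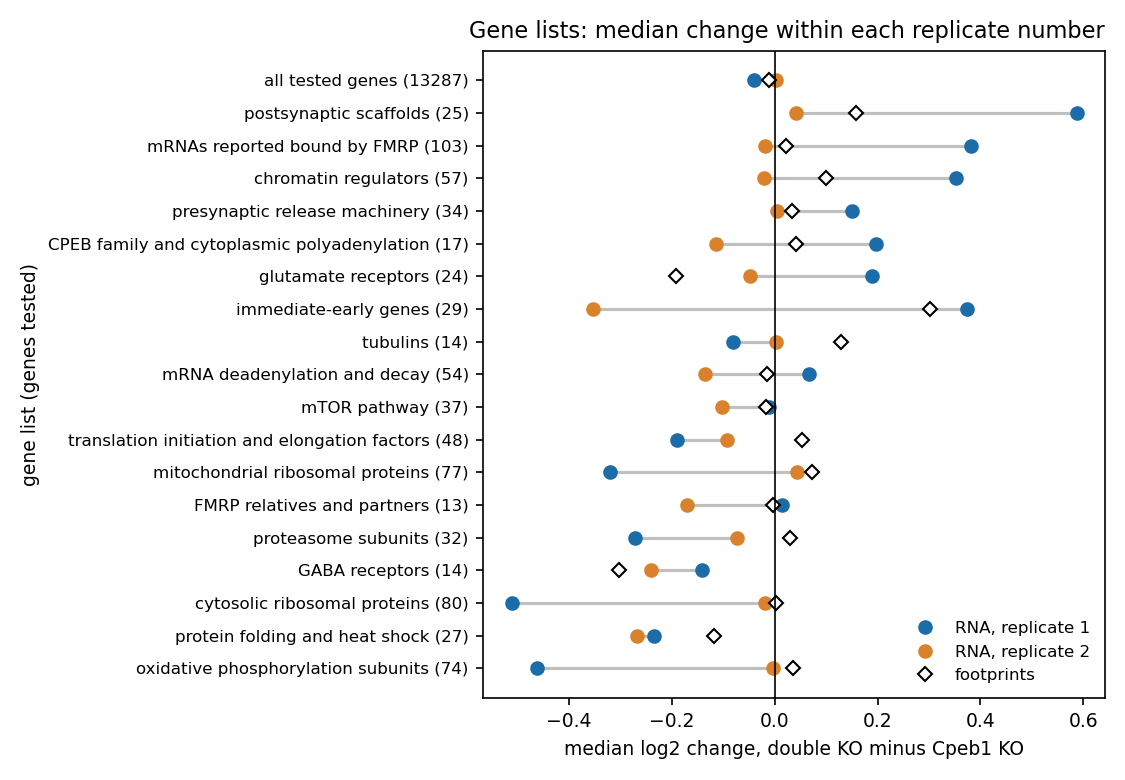
Median log2 difference between double and Cpeb1 knockout (horizontal axis) of each gene list, with the number of tested genes in brackets (vertical axis). Blue and orange points are RNA within replicate numbers 1 and 2, and open diamonds are footprints. Scaffold, FMRP-bound, chromatin, ribosomal protein and respiratory genes lie off 0 in number 1 and near 0 in number 2, while chaperone and GABA receptor genes lie below 0 in both.

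The difference in replicate number 1 followed coding length. The lengths in the deposited tables behave as coding lengths, since 99.7% of 12835 genes with a single transcript had a multiple of 3. In 10 bins of tested genes the median log2 difference in number 1 went from -0.38 in the shortest bin (median 417 nt) to 0.26 in the longest (median 4743 nt). In number 2 it went from 0.04 to -0.09, and in footprints from 0.02 to -0.04. Pearson's r between log2 length and the difference across 13285 genes was 0.353 in number 1 and -0.1 in number 2, given as a description. FMRP-bound and chromatin genes had median lengths of 5682 and 5133 nt, and ribosomal protein and respiratory genes 453 and 430 nt, so their differences and the length trend moved together. Scaffold genes had a median of 2931 nt, chaperones 1667 nt and GABA receptors 1416 nt, with 1434 nt over all tested genes.

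With the length trend removed from each library, 1524 genes were higher (11.5%) and 1461 lower (11%) at an unadjusted p under 0.05. The median of ribosomal proteins went from -0.23 to -0.10 and that of respiratory genes from -0.24 to -0.10, with 20 of 80 and 8 of 74 lower. FMRP-bound genes had a median of 0.13, with 34 higher and 9 lower of 103, and 13 higher and 1 lower past the adjusted threshold, beside 2.36% higher and 1.32% lower of all tested genes. Scaffolds had 0.33, with 14 higher and 2 lower of 25, and 6 higher and 2 lower past the adjusted threshold. Chaperones had -0.27, with 17 of 27 lower, and GABA receptors -0.21, with 6 of 14 lower. Removing the trend thus reduced the ribosomal protein and respiratory medians by more than the scaffold median and did not reduce the chaperone median.

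**Figure D4:**
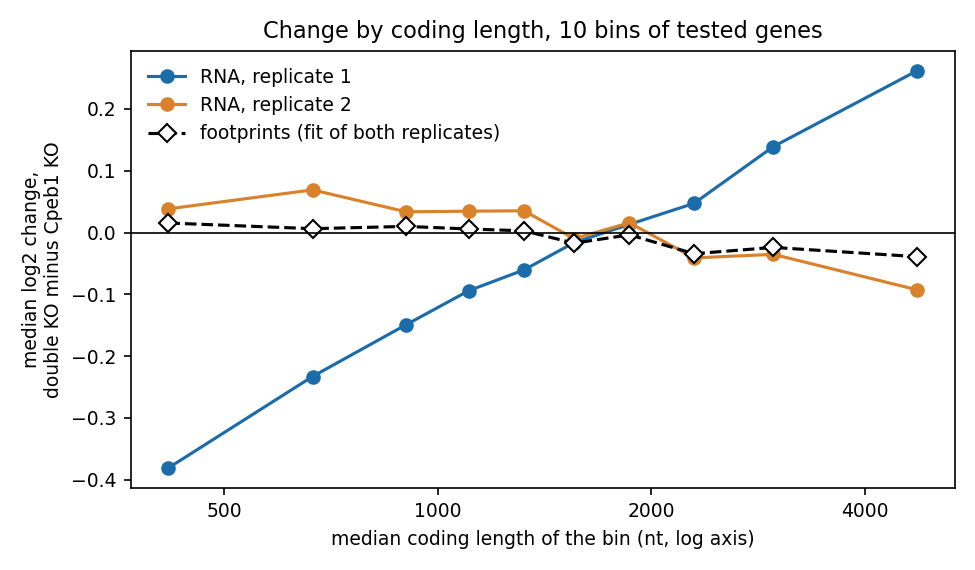
Median log2 difference between double and Cpeb1 knockout (vertical axis) in 10 bins of tested genes, placed at the bin's median coding length in nt (horizontal log axis). Blue and orange lines are RNA within replicate numbers 1 and 2, and open diamonds are footprints. The line of number 1 runs from -0.38 to 0.26, while the other lines stay between -0.09 and 0.07.

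Markers of cell types and neighbouring regions were examined because the groups could hold them in unequal amounts. In bulk tissue fewer cells of a type and less RNA per cell cannot be told apart. Markers of striatum, the region that lies beneath the cortex, were all higher in the double knockout, 10 of 10 by the fitted difference. At an unadjusted p under 0.05 6 of them were higher, beside 9.78% of all tested genes. Groups did not overlap for 7 of them, beside 20.5% of all tested genes that were higher without overlap. Their median log2 difference was 0.70, with 0.44 in number 1 and 1.00 in number 2, and 0.68 with the length trend removed. The summed RNA level of the list was 741 and 506 CPM in the Cpeb1 knockout, 956 and 1029 CPM in the double knockout, 890 and 1151 CPM in WT and 909 and 986 CPM in the Fmr1 knockout. The 2 Cpeb1 knockout libraries were the lowest of the 8.

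Among single striatal markers, Ppp1r1b, which encodes the dopamine signalling protein DARPP-32, was at 60.5 and 42.7 CPM in the Cpeb1 knockout and at 95.8 and 93.5 CPM in the double knockout, a log2 difference of 0.87 (SE 0.17). Pde10a, a phosphodiesterase of medium spiny neurons, was at 222 and 182 CPM against 316 and 301 CPM, and Rgs9, a regulator of G protein signalling, at 71.0 and 54.0 CPM against 123 and 104 CPM. Adora2a, the adenosine receptor of the indirect pathway, was at 36.4 and 22.8 CPM against 48.8 and 67.6 CPM. Drd1 and Tac1, of the direct pathway, and Penk, of the indirect pathway, overlapped between genotypes, with Penk at 150 and 76.5 CPM against 147 and 168 CPM. Drd2 and Gpr6 did not overlap. The rule names only Ppp1r1b and Penk, and the others are given as members of the list.

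Footprints of the striatal list differed less than its RNA. Its summed footprint level was 1401 and 1270 CPM in the Cpeb1 knockout and 1320 and 1470 CPM in the double knockout, which overlapped. The median log2 footprint difference over the 10 genes was -0.06, and 1 of the 10 was called, as higher, beside 3% of all genes. Ppp1r1b had a footprint difference of 0.40 (adjusted p 0.0557 in edgeR). Pde10a, Rgs9 and Adora2a, with RNA differences of 0.61, 0.86 and 0.91, had footprint differences of -0.05, -0.01 and -0.07. Adcy5 and Bcl11b, among the 10 higher genes, are also expressed in striatum, and the part of the striatal list in their difference was not tested.

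**Figure D5:**
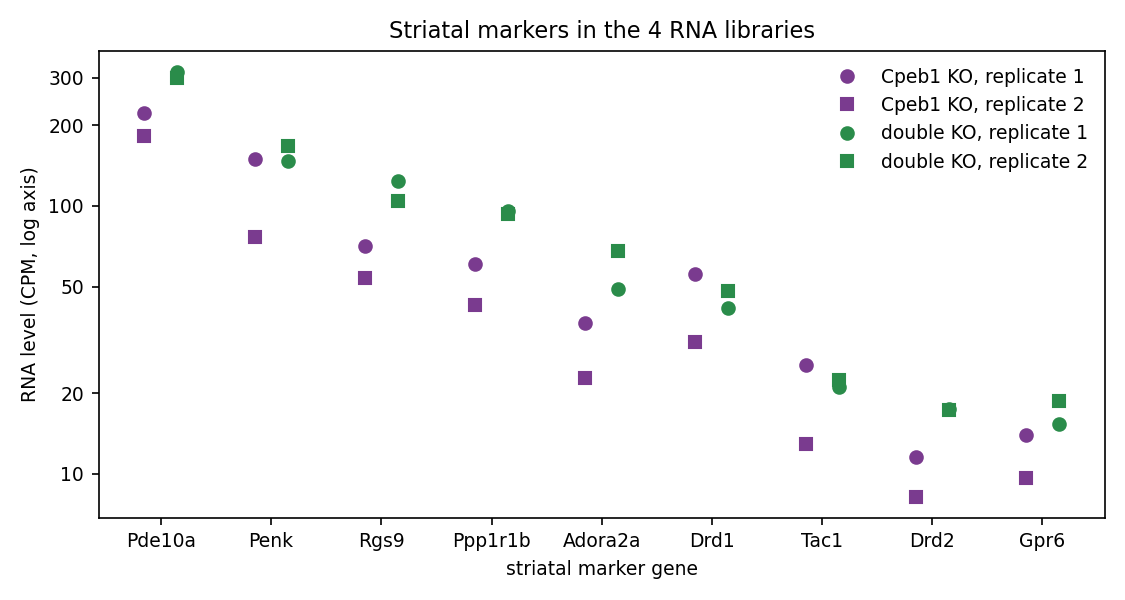
RNA level in CPM (vertical log axis) of 9 of the striatal markers (horizontal axis) in the 4 libraries compared. Purple is the Cpeb1 knockout and green the double knockout, with circles for replicate 1 and squares for replicate 2. The groups overlap for Penk, Drd1 and Tac1, and the green symbols are above the purple ones for the other genes shown.

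Among the other marker lists, markers of excitatory neurons, which define cortex, summed to 1801 and 2091 CPM in the Cpeb1 knockout. In the double knockout they summed to 2188 and 2360 CPM. At an unadjusted p under 0.05 2 of these 10 were higher, beside 9.78% of all tested genes. Inhibitory neuron markers summed to 1053 and 1028 CPM against 1026 and 1051 CPM. Microglial markers had a median of -0.34, from -0.71 in number 1 to 0.24 in number 2, with sums of 134 and 83.8 CPM against 84.1 and 96.9 CPM. In footprints their sums were 91.2 and 94.5 CPM against 53.0 and 70.8 CPM, and 2 of 11 fell, beside 2.61% of all genes. Astrocyte, oligodendrocyte, oligodendrocyte precursor, endothelial, mural, blood, choroid plexus, ependymal, meningeal, hippocampal and thalamic or hypothalamic lists had between 0 and 2 genes in either direction at an unadjusted p under 0.05. Markers of choroid plexus, the ventricular epithelium, summed to 81.6 and 46.4 CPM in the Cpeb1 knockout and 54.0 and 20.4 CPM in the double knockout, lower in both numbers, with WT at 70.7 and 248 CPM and none of its 5 tested genes at an unadjusted p under 0.05. The Y-linked genes Ddx3y, Eif2s3y, Kdm5d and Uty were found in all 8 RNA libraries, with Ddx3y at 129 and 99.5 CPM in the Cpeb1 knockout and 103 and 68.1 CPM in the double knockout. All 4 had a negative fitted difference, with a median of -0.35, and -0.19 and -0.54 in the 2 numbers. At an unadjusted p under 0.05 2 of the 4 were lower, beside 9.41% of all tested genes, and 2 fell in footprints, beside 2.61% of all genes. The cause was not tested.

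Genes beside Fmr1 on the X chromosome were examined because they form the neighbourhood of the targeted allele. Of the 10 nearest tested genes, 5 on each side in the order of GRCm38.p6, none passed the adjusted threshold in RNA. Slitrk2, the nearest tested gene on one side and a synaptic adhesion protein, had a log2 difference of -0.31 (SE 0.14), with -0.28 and -0.35 in the 2 numbers, and fell in footprints by 0.61 on the log2 scale (adjusted p 0.011 in edgeR). Aff2, the nearest on the other side, had -0.05 with opposite signs in the 2 numbers. Slitrk2 and Aff2 were named for their position. Of the others, singled out after their values were seen, Slitrk4 had -0.34 in RNA and fell in footprints by 0.46 on the log2 scale (adjusted p 0.0166 in edgeR), and Mtmr1 had -0.38 in RNA. Cdr1 went the other way, with 1.29 (SE 0.43), made up of 1.95 and 0.17 in the 2 numbers, and its reads cannot be told from those of its antisense transcript, since counting by strand is not stated. The remaining 5 had an unadjusted p above 0.05. Over the 433 tested genes of the X chromosome, Fmr1 included, 72 were lower and 18 higher at an unadjusted p under 0.05, beside 9.41% lower and 9.78% higher of all tested genes, and the median was -0.13, against -0.02 over 12172 autosomal genes.

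The last comparison asked whether the effect of Fmr1 loss depended on Cpeb1, by subtracting the difference between Fmr1 knockout and WT from that between double and Cpeb1 knockout. Fmr1 loss with Cpeb1 present gave 1 call, Fmr1 itself (0.00753%), and 1075 genes at an unadjusted p under 0.05 (8.09%). The difference of the 2 effects was called for 274 genes (2.06%), of which 236 were positive (1.78%) and 38 negative (0.286%). This result rests on the design: without the replicate number as a term no gene was called, with 2449 at an unadjusted p under 0.05 in edgeR, while DESeq2 with that term called 531. Leaving out library 1 or 2 of WT, or library 1 of the double knockout, gave 0 calls, leaving out library 1 or 2 of the Fmr1 knockout gave 1 and 2, leaving out library 1 or 2 of the Cpeb1 knockout gave 20 and 1044, and leaving out library 2 of the double knockout gave 1360.

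The effects in the 2 backgrounds, which share no library, are given side by side for genes described above, most of them picked from the comparison with Cpeb1 lost. Arhgap33 had a log2 difference of -0.57 for Fmr1 loss with Cpeb1 present and 0.89 with Cpeb1 lost. Dbp had -0.58 and 0.88, and Cdk5r2 had -0.51 and 0.96. In each of these 3 genes WT and double knockout libraries were high and both single knockouts low. Gpr22 had 0.17 and -0.76, and Hspa8 had 0.47 and -0.35. For Hspa8 the difference of the effects was -0.82 (SE 0.14, adjusted p 0.0385 in edgeR). Fmr1 itself had -2.18 and -2.11, a difference of 0.06 (SE 0.18). Pls3 was lower in both backgrounds, with -0.28 and -0.75.

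By list, the median effect of Fmr1 loss with Cpeb1 present was -0.33 for scaffolds, -0.15 for FMRP-bound mRNAs, 0.25 for chaperones and 0.34 for ribosomal proteins. Each was of the opposite sign to the median with Cpeb1 lost, 0.38, 0.19, -0.24 and -0.23. In replicate number 2 alone the medians with Cpeb1 lost were, in the same order, 0.04, -0.02, -0.27 and -0.02. The medians with Cpeb1 present are not given within replicate numbers or with the length trend removed, so a part of length in them was not tested. Summed RNA of FMRP-bound mRNAs overlapped between WT (75540 and 64230 CPM) and the Fmr1 knockout (61580 and 64300 CPM). It was lower in the Fmr1 knockout in number 1 and nearly equal in number 2. Scaffolds summed to 8030 and 7710 CPM in WT and to 6029 and 6634 CPM in the Fmr1 knockout, lower in both numbers. For ribosomal proteins WT (11700 and 13830 CPM) lay below the Fmr1 knockout (16900 and 15120 CPM), with the wider gap in number 1. GABA receptors had 0.03 and -0.21. Among scaffolds the difference of effects was positive and called for 7 of 25 genes, and among chaperones negative and called for 5 of 27, beside 1.78% and 0.286% of all tested genes and with the dependence on design given above. For the striatal markers the median with Cpeb1 present was -0.06, beside 0.70 with Cpeb1 lost.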

How the data were processed

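RNA-seq and footprint libraries were grouped by their titles. The authors deposited, per the file headers, RSEM gene tables with expected counts (estimated counts, not scaled to depth), TPM values scaled within each library, which were not used, and feature lengths. The submitters' processing notes name cutadapt, Bowtie2, TopHat2, RSEM, DESeq2 and the build mm10, without versions. The authors' deposited comparison tables hold a mean normalized signal, log2 changes, p-values and adjusted p-values, made with DESeq2 or Xtail per the series' design text. The deposited log2 values are printed only where that table is named.

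Expected counts were rounded and tested with edgeR 4.0.16 (R 4.3.3): TMM scaling, filterByExpr with its minimum count set to 10, and a quasi-likelihood fit (glmQLFit, glmQLFTest) of all 8 libraries of an assay, with genotype and replicate number as terms and Benjamini-Hochberg adjustment over all tested genes. The labels do not state the replicate term. Genes called have an adjusted p under 0.05. CPM use TMM factors, and differences within a replicate number were taken on log2 CPM, to which a prior of 2 counts was added. RNA library totals ran from 5423925 to 10246482 counts and footprint totals from 16239703 to 24973757, and the 4 RNA libraries compared held 8365060 and 6148270 (double knockout, libraries 1 and 2) or 8753873 and 6528734 (Cpeb1 knockout). On simulated counts for this RNA comparison (13287 genes), edgeR recovered 42% of genes changed 1.5-fold, 94% at 2-fold, 98% at 3-fold and 96% at 4-fold, with 8 false calls. These counts were drawn at the fitted trend of spread with level, with no replicate effect and no length trend. The real libraries held a length trend in replicate number 1, so the recovered shares may not hold for them.

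The rule for named genes took Fmr1, Cpeb1, every called gene, the 10 higher and 10 lower genes of smallest p with a mean of at least 50 counts, the same sign in both replicate numbers and a symbol that is not provisional, the authors' 3 first genes in each direction, and per list the 3 members of highest level per length. Some genes that the rule or a list names are not reported here. Members and lists were chosen with earlier results of these data known. Promoter windows are RefSeq's, on GRCm38.p6, and 12610 tested genes matched its gene table. Alternatives were DESeq2 1.42.0, upper-quartile scaling, other filters, no replicate term, the 4 libraries alone, a length correction (lowess span 0.3) and leaving out each library.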

Additional observations from a re-analysis of the deposited data

Results flagged for a closer look

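The effect of Fmr1 loss on RNA differed between backgrounds with and without Cpeb1 for 274 genes by the test of the difference in edgeR, with no call when the replicate number was left out of the fit. Among the 20 higher and lower genes described above this held for 15. The differences of the 2 log2 effects were 1.49 for Nbl1, 1.35 for Shisa7, 1.46 for Dbp, 1.46 for Arhgap33, 0.93 for Srrm3, 1.38 for Ltbp4, 0.92 for Bcl11b, 1.47 for Cdk5r2, 1.19 for Adcy5 and 1.43 for Rnf44. They were -0.80 for Tmem184c, -0.93 for Gpr22, -0.77 for Serpini1, -0.73 for Ptges3 and -0.78 for Nkrf. These genes were picked from the comparison of double and Cpeb1 knockout, which is part of the difference, so their share is no result about them. With 2 libraries a group no library could be tested as standing apart from its group.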

How the results depend on the processing

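With 2 libraries a group, 1 library can decide a call, and 167 genes had an adjusted p under 0.1 in RNA. Fmr1 was called under every alternative run. The RNA count of 1 became 212 with DESeq2, 206 with no filter on low counts, 132 with only the 4 libraries compared, 489 with the length correction, and 1 to 463 when leaving out each library. The footprint count of 772 became 1701 with the 4 libraries compared and 5 to 1987 when leaving out each library, the highest without WT libraries 1 or 2 (1987 and 1986). The count of differing effects, 274, became 531 with DESeq2, 415 with upper-quartile scaling, 767 with no filter, 422 with at least 10 counts in every library, 1147 with the length correction and 0 to 1360 when leaving out each library.

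Without the replicate block the counts were 1 for RNA (1960 genes at an unadjusted p under 0.05), 207 for footprints and 0 for the difference of effects. The numbers are not known to pair the samples. Deviations from the group means of same-numbered libraries correlated at -0.0446 between the Cpeb1 and double knockouts and at 0.0305 to 0.293 between the other groups. Which of the fits, with or without the block, suits these libraries was not tested, so the counts that need the block stay uncertain.

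The 20 higher and lower genes kept their sign under every alternative. Without library 2 of the Cpeb1 or of the double knockout 16 of them were called in either case, and 1 and 0 without library 1 of these. Arc turned positive with at least 10 counts in every library (0.00167), without the replicate block (0.129) and with the length correction (0.0121), and Gabbr1 turned to -0.000263 with the length correction. When leaving out each library the log2 difference turned sign and ran from -0.986 to 0.753 for Arc, from -0.0652 to 0.177 for Gabbr1, from -0.370 to 0.273 for Cpeb1, from -0.431 to 0.0743 for Rplp1, from -0.501 to 0.0513 for Rpl13a, from -0.566 to 0.0502 for Rpl38, from -0.107 to 0.0308 for Atp5b, from -0.458 to 0.0942 for Cox4i1, from -0.202 to 0.110 for Sptan1, from -0.0651 to 0.116 for Eef1a2, from -0.439 to 0.653 for Drd1, from -0.0100 to 1.11 for Penk, from -0.326 to 0.863 for Tac1 and from -0.402 to 0.263 for Aff2. The difference of effects ran from -0.0205 to 0.170 for Fmr1 and from -0.0964 to 0.546 for Cpeb1. In all these cases the cause was not tested. The medians within each replicate number were added after seeing the data.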
